A study of Homo sapiens with 45 samples.

Results

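The axon guidance genes described here were the ligands and receptors of the classical guidance systems, chosen by gene symbol: class 3 to 7 semaphorins, neuropilins, plexins, Slits, Robos, netrins, the netrin receptors DCC and UNC5A to UNC5D, and the A and B classes of ephrins and Eph receptors. The pattern matched 69 of the 29159 genes in the count tables, namely 20 semaphorins, 2 neuropilins, 9 plexins, 3 Slits, 4 Robos, 4 netrins, 5 netrin receptors, 5 ephrin-A ligands, 9 EphA receptors, 3 ephrin-B ligands and 5 EphB receptors. The pattern used symbols and no measured value, though it was set with earlier results of these data known. RNA was sequenced from 3 human neuroblastoma lines of the adrenergic type, namely SK-N-BE(2)C, SH-SY5Y and IMR-32, each as control, after 24 h and after a longer time with palbociclib (PB), an inhibitor of the cyclin-dependent kinases CDK4 and CDK6 that was used at 1 µM. MYCN is amplified in IMR-32 and SK-N-BE(2)C but not in SH-SY5Y. The longer time was 7 d for SK-N-BE(2)C and 5 d for the other two lines, so length of treatment and line cannot be told apart at that time point. Each of the 9 groups held 5 libraries made from different passages of its line, and all groups grew in medium with serum. The controls were collected with the 24 h cultures, so days in culture and PB cannot be told apart in comparisons of the longer time with control. Each line descends from 1 tumor and contains no other tissue, so the 15 libraries of a line measure its cultures and not a patient population. In bulk RNA, fewer cells that express a gene and less RNA per cell cannot be told apart.

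Guidance cues steer growing axons by attraction or repulsion through receptors on the growth cone. Secreted class 3 semaphorins act on complexes of a neuropilin, which binds the cue, and a plexin, which signals, whereas most membrane-bound semaphorins bind plexins directly. Slits repel through Robo receptors, netrins attract through DCC and repel through UNC5 receptors, and ephrins and Eph receptors signal between touching cells in both directions, with ephrin-A ligands held by a lipid anchor and ephrin-B ligands spanning the membrane. Many of these genes also pattern neural crest migration and sympathetic innervation, the lineage from which neuroblastoma arises.

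The libraries held 13459219 to 25441812 counts (median 18494528), and levels are given as CPM, the counts of a gene scaled to a common library total. With low counts set aside, 55 members were tested in SK-N-BE(2)C, 62 for IMR-32 and 58 for SH-SY5Y, and 51 members were tested in all 3 lines, 9 in 2, 4 in 1 and 5 in none (ROBO4, NTN1, EPHA1, EPHA3 and EPHA4). A member that passed this filter may have done so through the group in which it was high. The common biological coefficient of variation was 13.8% in SK-N-BE(2)C, 19.8% for IMR-32 and 11.2% for SH-SY5Y. All 8 adrenergic markers exceeded a mean of 1 CPM in the MYCN-amplified lines, and 7 of 8 in SH-SY5Y. Their summed level lay above the controls without overlap at 24 h in each line. It was 2077 to 2390 CPM in SK-N-BE(2)C controls, 2933 to 3147 CPM at 24 h and 2571 to 3089 CPM at 7 d. In that order it was 2024 to 3076, 3176 to 3982 and 2891 to 3527 CPM for IMR-32, and 3909 to 5163, 5715 to 7537 and 4075 to 5854 CPM for SH-SY5Y. The summed level of 3 endothelial markers stayed between 0.0593 and 3.37 CPM. The sum of 3 Schwann and glial markers lay above the controls without overlap at both times in SK-N-BE(2)C and at 5 d for IMR-32, with 5.00 to 8.22 CPM in SK-N-BE(2)C controls, 9.29 to 14 CPM at 24 h and 10.2 to 13.7 CPM at 7 d, and with 1.15 to 3.32, 3.13 to 3.53 and 5.27 to 9.26 CPM for IMR-32. It was 2.62 to 3.67, 3.32 to 4.69 and 2.73 to 5.37 CPM for SH-SY5Y. The summed level of 6 cell-cycle genes, a check of the drug, lay between 2009 and 2172 CPM for SK-N-BE(2)C controls, 355 to 521 CPM at 24 h and 348 to 755 CPM at 7 d. The same sum was 1385 to 1981 CPM, 253 to 444 CPM and 749 to 1041 CPM for IMR-32 in that order, and 1388 to 1799.7 CPM, 146 to 220.3 CPM and 144 to 531 CPM for SH-SY5Y. Of the tested mesenchymal markers, 4 of 6 were called lower and 1 higher at 7 d in SK-N-BE(2)C, 3 and 0 of 4 for IMR-32 at 5 d and 5 and 1 of 7 for SH-SY5Y at 5 d. Their summed level was 195 to 207 CPM in SK-N-BE(2)C controls and 198 to 367 CPM at 7 d, 215 to 289.7 CPM and 135 to 177 CPM for IMR-32, and 507 to 562 CPM and 236 to 266 CPM for SH-SY5Y. At 24 h this mesenchymal sum was 195 to 209 CPM in SK-N-BE(2)C, 226 to 271 CPM for IMR-32 and 322 to 406 CPM for SH-SY5Y. The part of the adrenergic, Schwann, glial and mesenchymal markers in the changes of the guidance genes was not tested.

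IMR-32 replicate 5 stood apart from replicates 1 to 4, in the controls as well as after PB. Among members with a group mean of at least 1 CPM, it lay over 1.5-fold outside the range of the other 4 libraries for 26 of 58 members in controls (44.8%), 24 of 59 at 24 h (40.7%) and 20 of 58 at 5 d (34.5%). Over all genes with that mean the shares were 16.2%, 13.1% and 7.63%, so the replicate differed in many other genes too. No other IMR-32 replicate did so for more than 4 members, and no library of the other lines for more than 7. Over all genes the 24 h library of IMR-32 replicate 2 reached 4.19% and the 7 d library of SK-N-BE(2)C replicate 1 reached 6.4%. UNC5B, a netrin receptor, reached 394.9 CPM in replicate 5 of the controls against 24.9 to 34.9 CPM in the other 4, 619.9 against 22.3 to 30.7 CPM at 24 h, and 392 against 17.1 to 131 CPM at 5 d. SLIT3, a repellent ligand, reached 379 against 118 to 173 CPM, 577 against 132 to 168 CPM and 229.8 against 43.3 to 102 CPM. SLIT1 was low in replicate 5 with 4.37 against 38.5 to 82.4 CPM in controls, and DCC with 5.46 against 28.6 to 35.4 CPM. Its adrenergic marker sum was 2024 CPM in controls against 2599 to 3076 CPM in the others, its mesenchymal sum 289.7 against 215 to 277 CPM, and its cell-cycle sum 1981 against 1385 to 1587 CPM. Its cell-cycle sum was also the highest of its group after PB, with 444 against 253 to 283 CPM at 24 h and 1041 against 749 to 906 CPM at 5 d. The part of these markers in the difference was not tested. Of the IMR-32 members called changed with all libraries (past 0.5 on the log2 scale with an adjusted p under 0.05), 13 of 16 at 24 h, 28 of 30 at 5 d and 11 of 13 between the times were also called in the same direction without this replicate, and 6, 12 and 13 others were called only without it. Without it the 5 d log2 fold change was 1.33 for PLXNA3, 0.76 for PLXNB1, 1.27 for PLXNB3, -0.93 for PLXND1, 0.87 for NRP1, 1.59 for SEMA3D, 0.97 for SEMA4G, -1.16 for ROBO1, -0.73 for NTN3, 1.20 for UNC5C, 1.27 for EFNA3, -1.73 for EPHA5 and -1.06 for EPHB2, all still called.

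**Figure D1:**
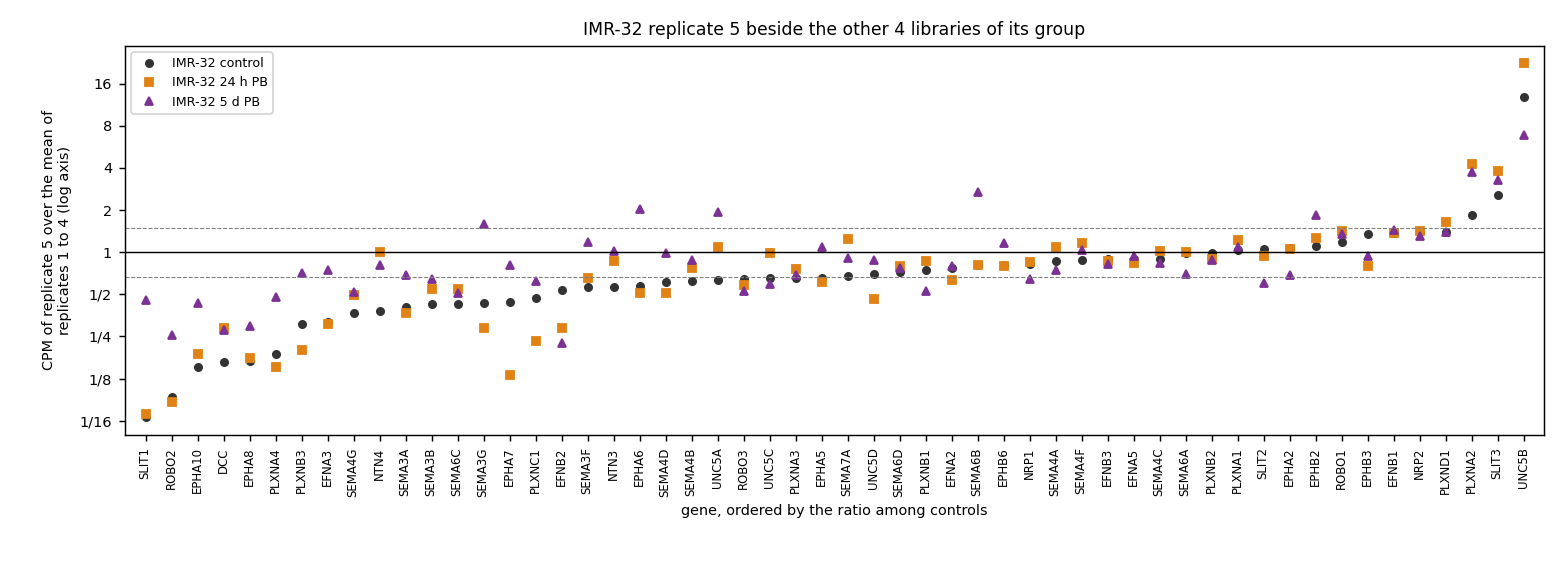
Each column is 1 of the 54 members with at least 1 CPM in the mean of IMR-32 replicates 1 to 4 in all 3 groups, and the log axis gives the CPM of replicate 5 over that mean, with dashed lines at 1.5-fold. SLIT1, ROBO2, EPHA10, DCC, EPHA8 and PLXNA4 sit below the lower line and PLXNA2, SLIT3 and UNC5B above the upper line in controls (circles), at 24 h (squares) and at 5 d (triangles).

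Promoter sequences are shown for 4 members that moved alike in the 3 lines. The 250 bases upstream of the start, from the RefSeq promoter windows on GRCh38.p14, are printed 5′ to 3′ on the strand of the gene. PLXNA3 and SEMA6C were called higher at the longer time in each line, and NRP2 and PLXND1 lower in all 3. The IMR-32 call of NRP2 was lost without replicate 5 (log2 fold change -0.49). These genes were chosen after their values were seen. Capitals mark CpG dinucleotides.
PLXNA3: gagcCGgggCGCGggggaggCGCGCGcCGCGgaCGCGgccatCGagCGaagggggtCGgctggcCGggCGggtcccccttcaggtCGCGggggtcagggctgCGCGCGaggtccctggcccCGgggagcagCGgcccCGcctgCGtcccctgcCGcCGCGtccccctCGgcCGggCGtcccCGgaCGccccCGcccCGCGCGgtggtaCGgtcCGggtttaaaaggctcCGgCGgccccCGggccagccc
SEMA6C: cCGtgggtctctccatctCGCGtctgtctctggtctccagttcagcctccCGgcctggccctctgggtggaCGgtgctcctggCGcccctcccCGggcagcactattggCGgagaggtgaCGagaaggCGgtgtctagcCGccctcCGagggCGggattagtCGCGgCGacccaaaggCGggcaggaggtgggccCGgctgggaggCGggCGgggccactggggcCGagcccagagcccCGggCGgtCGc
NRP2: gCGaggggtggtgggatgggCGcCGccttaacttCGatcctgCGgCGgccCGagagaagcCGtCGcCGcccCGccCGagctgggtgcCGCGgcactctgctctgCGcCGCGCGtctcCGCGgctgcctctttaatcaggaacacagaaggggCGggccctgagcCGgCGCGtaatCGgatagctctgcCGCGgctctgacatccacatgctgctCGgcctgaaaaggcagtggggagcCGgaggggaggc
PLXND1: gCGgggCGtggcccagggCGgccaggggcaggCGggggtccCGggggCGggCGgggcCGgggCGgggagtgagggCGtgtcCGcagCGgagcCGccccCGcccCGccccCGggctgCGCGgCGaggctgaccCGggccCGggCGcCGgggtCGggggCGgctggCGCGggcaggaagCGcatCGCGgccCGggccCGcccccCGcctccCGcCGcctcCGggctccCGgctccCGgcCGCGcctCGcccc
The windows lie at chrX:154458031-154458280 (plus strand) for PLXNA3, chr1:151146632-151146881 (minus strand) for SEMA6C, chr2:205682251-205682500 (plus strand) for NRP2 and chr3:129606677-129606926 (minus strand) for PLXND1. They hold 41, 24, 29 and 41 CpGs, against a median of 11 in the same window of 35116 promoters. As many CpGs or more stand in 1.73% of all windows for PLXNA3 and PLXND1, 23.7% for SEMA6C and 14.1% for NRP2, so a riser and a faller share the highest count. The E2F letters TTTCCCGC, TTTGGCGC, TTTCGCGC and TTTGCCGC, searched on both strands of the full window from 250 bases before to 50 after the start, were found in 0 windows of the 59 members with an entry, and in 1164 of all 35116 windows (3.31%). No match says only that these letters are not in these windows.

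Levels can be compared between genes only per length, here as CPM per kilobase of exon. In controls the dependence receptor UNC5B had the highest level in SK-N-BE(2)C with 92.2 ± 16.7 (SD, n = 5) and in SH-SY5Y with 109 ± 6.59, and the repulsive netrin receptor UNC5C followed in SH-SY5Y with 48.5 ± 3.29. PLXNB2, a receptor for class 4 semaphorins, came next in SK-N-BE(2)C with 37.9 ± 2.09, led in IMR-32 with 32.4 ± 1.14 and stood at 41.8 ± 2.48 in SH-SY5Y. SLIT3 was the highest ligand in SK-N-BE(2)C with 33.1 ± 3.24 and came to 26.8 ± 2.69 in SH-SY5Y, just under the ligand EFNB2 with 29.9 ± 4.34. In IMR-32 controls NTN3, a netrin, with 25.8 ± 6.27 and the Slit receptor ROBO1 with 24.7 ± 2.59 followed PLXNB2 and lay within 1 SD of each other. UNC5B in IMR-32 came to 15.2 ± 23.8 with a spread set by replicate 5. UNC5A, UNC5B and UNC5C were each among the 7 highest members in SK-N-BE(2)C controls.

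**Figure D2:**
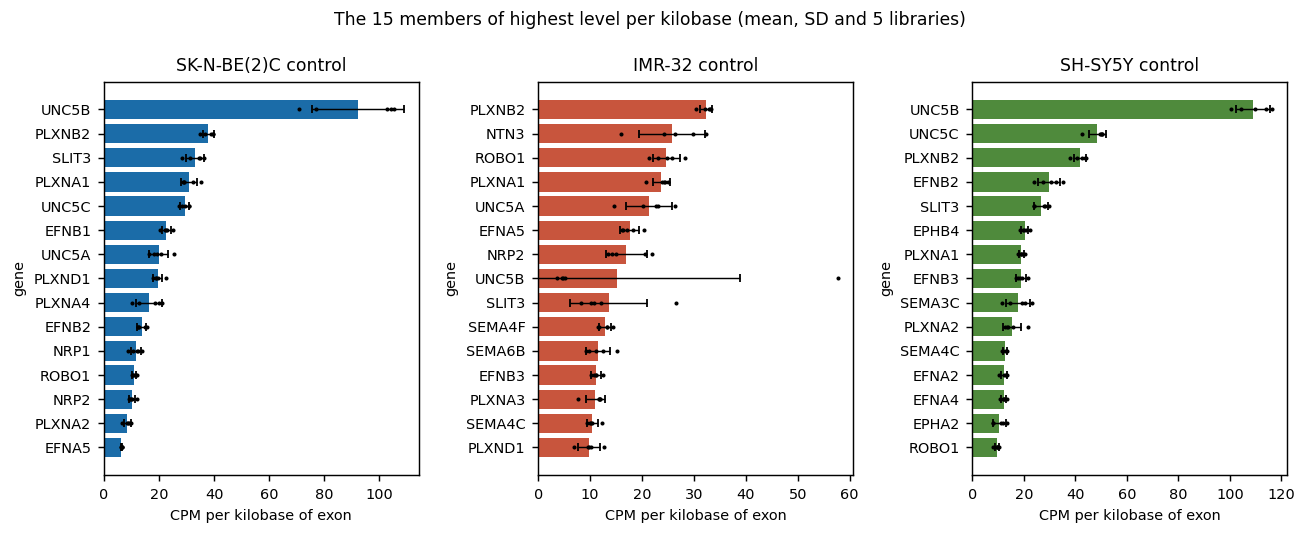
Bars give the mean CPM per kilobase of exon in the 5 control libraries of each line, with SD as error bars and the libraries as points, for the 15 members of highest level. UNC5B leads in SK-N-BE(2)C and SH-SY5Y, whereas in IMR-32 PLXNB2 leads and a single library sets the spread of UNC5B.

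Members rose and fell with PB in every line. At the longer time the share of tested members called was above that of all genes tested in each line and direction, with 36.4% higher and 27.3% lower in SK-N-BE(2)C, 24.2% and 24.2% for IMR-32 and 29.3% and 24.1% for SH-SY5Y. At 24 h the share called higher was also above it, with 21.8% in SK-N-BE(2)C, 12.9% for IMR-32 and 24.1% for SH-SY5Y, and the IMR-32 share did not keep its size under other scaling. The share called lower at 24 h was 10.9%, 12.9% and 13.8% in the same order, against 10.6%, 10.5% and 11% of all genes. The difference between these shares and those of all genes was not tested. A change was called where it passed 0.5 on the log2 scale with an adjusted p under 0.05, from 5 against 5 libraries. Each line was also fitted 20 more times, leaving out 1 library or the libraries of 1 replicate number, and calls that were lost in these fits are named beside their values. In SK-N-BE(2)C, 12 of 55 members were called higher and 6 lower at 24 h, against 10.9% and 10.6% of all genes tested, and 20 higher and 15 lower at 7 d, against 24.5% and 22.3%. Between 24 h and 7 d, 15 rose and 13 fell, against 17.5% and 14.4%. With replicates 3 to 5 summed to 1 library, which were close to each other in controls and at 24 h but at 7 d only replicates 4 and 5 were, SK-N-BE(2)C called 12, 31 and 25 members in these 3 comparisons. In IMR-32, 8 of 62 members were called higher and 8 lower at 24 h, against 7.87% and 10.5% of all genes. This split was 5 and 9 with size factors of the RLE method and 4 and 9 with library size alone. The IMR-32 count of 16 at 24 h was 3, 4, 7 and 5 without replicate 1, 2, 3 and 4, 19 without replicate 5, and 8 or 10 without the 24 h library of replicate 1 or 2. At 5 d, 15 were higher and 15 lower in IMR-32, against 16.6% and 15.5%, and without replicate 5 these were 17 and 23. Between 24 h and 5 d, 7 IMR-32 members rose and 6 fell, against 10.8% and 8.86%, while the fit with replicate number as a block called 12 and 12 and the fit without replicate 5 called 11 and 13. In SH-SY5Y, 14 of 58 members were called higher and 8 lower at 24 h, against 10.5% and 11% of all genes, and 17 higher and 14 lower at 5 d, against 18.6% and 17.3%. Between the times 8 rose and 7 fell, against 10.5% and 6.23%. The median log2 fold change of the members at the longer time was 0.20 in SK-N-BE(2)C, -0.02 for IMR-32 and 0.09 for SH-SY5Y, beside 0.01, 0.00 and 0.01 over all genes tested.

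Ligands and receptors did not part into 1 direction each. At the longer time 9 of 29 tested ligands were higher and 8 lower in SK-N-BE(2)C, 7 and 5 of 34 for IMR-32 and 11 and 8 of 33 for SH-SY5Y. Of the receptors, 11 of 26 were higher and 7 lower in SK-N-BE(2)C, 8 and 10 of 28 for IMR-32 and 6 and 6 of 25 for SH-SY5Y. Of all genes tested, 24.5% were higher and 22.3% lower in SK-N-BE(2)C, 16.6% and 15.5% for IMR-32 and 18.6% and 17.3% for SH-SY5Y. The same shares stand beside the family counts below, and several of these counts lie near them. Without replicate 5 the IMR-32 split at 5 d was 8 ligands higher and 12 lower, so its balance turned, and 9 receptors higher and 11 lower. At 24 h, 8 ligands rose and 5 fell in SK-N-BE(2)C, 6 rose and 2 fell for IMR-32, and 10 rose and 4 fell for SH-SY5Y. Of the receptors 4 rose and 1 fell, 2 rose and 6 fell, and 4 rose and 4 fell in the same order of lines. Without replicate 5 the 24 h receptors of IMR-32 were 4 higher and 7 lower. Of the 51 members tested in all 3 lines, 10 were called in the same direction in each at the longer time, 7 higher (13.7%) and 3 lower (5.88%), against 6.91% and 6.5% of all genes tested in the 3 lines. EFNB3, PLXNA3, PLXNB1, PLXNB3, SEMA4G, SEMA6C and UNC5A were higher, and NRP2, PLXND1 and SEMA6A lower. Of these, NRP2 and UNC5A were not called in IMR-32 without replicate 5, with log2 fold changes of -0.49 and 0.17, whereas SEMA3B and EPHA10 were then called higher in all 3 lines. That fit gave 8 members higher and 2 lower in the 3 lines, against 6.97% and 6.4% of all genes. Another 12 of the 60 members tested in at least 2 lines (20%) were called in opposite directions, against 2.83% of all genes so tested, namely SEMA3C, SEMA3D, SEMA6B, SEMA7A, NRP1, PLXNA2, PLXNA4, ROBO3, NTN3, EFNA1, EPHA6 and EPHB2. Without IMR-32 replicate 5 these were 13, with EFNB2 added, against 3.58% of all genes.

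**Figure D3:**
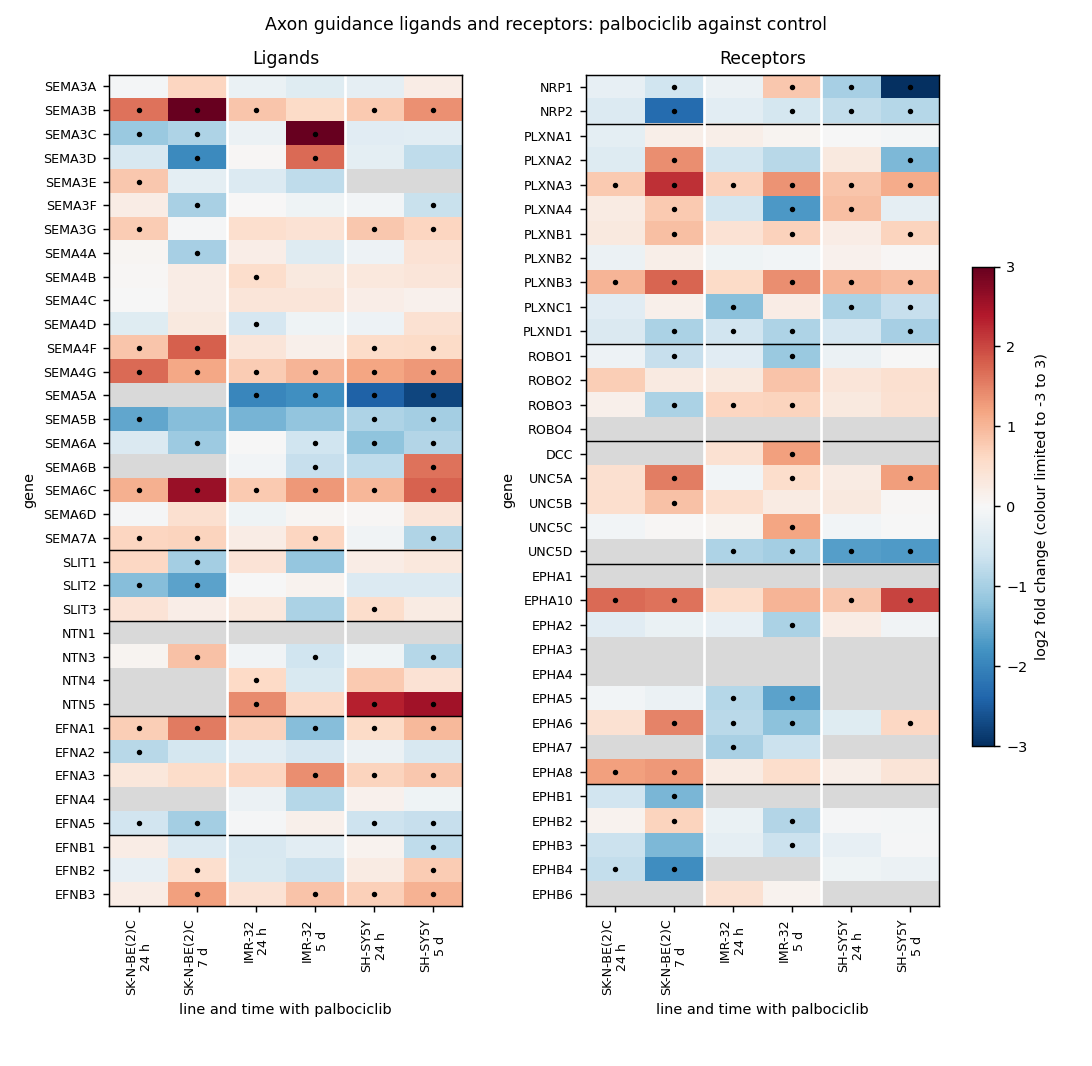
Colour gives the log2 fold change of PB against control at 24 h and at the longer time in each line for the 35 ligand genes (left) and 34 receptor genes (right), by family, and a dot marks a called change. Grey cells were not tested because of low counts, and rows of 1 colour across all 6 columns, such as PLXNA3, SEMA6C and SEMA4G, stand beside rows that change colour between lines, such as NRP1, SEMA3C and EPHA6.

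Among the semaphorins, the largest family, 5 of 18 tested members were higher and 5 lower at 7 d in SK-N-BE(2)C, 5 and 3 of 20 at 5 d for IMR-32 (6 and 5 without replicate 5) and 6 and 5 of 19 for SH-SY5Y. SEMA6C, a membrane-bound semaphorin (hg19 chr1:151104161-151119107, minus strand, 19 merged exons), rose in every line at both times. Its 5 SK-N-BE(2)C controls held 1.26, 0.965, 0.998, 1.49 and 0.973 CPM, the 24 h libraries 2.00, 2.04, 2.59, 2.96 and 2.62 CPM and the 7 d libraries 4.74, 9.02, 8.995, 6.64 and 5.67 CPM. The 3 groups did not overlap, with log2 fold change 2.59 ± 0.21, adjusted p = 1.4e-08 at 7 d. In SH-SY5Y the controls held 25.2, 30.6, 27.3, 22.7 and 21.3 CPM, 24 h 59.2, 56.3, 53.9, 43.6 and 40.6 CPM and 5 d 112, 95.8, 85.5, 85.7 and 72.1 CPM, again without overlap (log2 fold change 1.76 ± 0.12, adjusted p = 3.5e-09). In IMR-32 replicates 1 to 4 held 36.1, 37.1, 33.6 and 42.3 CPM in controls, 64.7, 59.9, 56.3 and 61.6 CPM at 24 h and 97.3, 103, 71.2 and 91.6 CPM at 5 d, and replicate 5 held 15.9, 33.3 and 46.6 CPM in the same order. Replicate 5 was the lowest of each group but rose between them as the others did, and the change at 5 d was 1.30 ± 0.26 with it and 1.27 ± 0.10 (adjusted p = 4.5e-08) without it. The IMR-32 call at 24 h (log2 fold change 0.79 ± 0.26, adjusted p = 0.028) was lost in 7 of 20 fits that left out libraries (log2 fold changes of 0.62 to 0.93).

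SEMA4G, a membrane-bound class 4 semaphorin, rose early. Its SK-N-BE(2)C controls held 5.29, 3.47, 4.44, 3.64 and 4.33 CPM, the 24 h libraries 14.5, 13.0, 14.96, 13.0 and 15.3 CPM and the 7 d libraries 11.2, 7.50, 10.1, 9.81 and 10.3 CPM. The 24 h group lay above both others (log2 fold change 1.70 ± 0.13, adjusted p = 4.7e-08 at 24 h and log2 fold change 1.16 ± 0.13, adjusted p = 8.1e-07 at 7 d), and the fall between 24 h and 7 d (log2 fold change -0.54 ± 0.13, adjusted p = 0.0015) was lost without replicate 2 or without the 7 d replicate 2 (log2 fold changes of -0.60 to -0.45 in the fits that left out libraries). SH-SY5Y held 19.99 to 27.8 CPM in controls, 51.1 to 56.0 CPM at 24 h and 51.0 to 69.0 CPM at 5 d (log2 fold change 1.30 ± 0.094, adjusted p = 2.8e-09). In IMR-32 replicates 1 to 4 held 18.6 to 22.4 CPM in controls and 33.9 to 46.4 CPM at 5 d, and replicate 5 went from 7.64 to 21.2 CPM (log2 fold change 1.01 ± 0.28, adjusted p = 0.0078). Of the 5298 exon bases of SEMA4G, 1486 lie under exons of MRPL43 and another gene on the opposite strand. The libraries were stranded, but no source used here says whether the counting read the strand, so the counts of such pairs are uncertain.

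Among the secreted class 3 semaphorins SEMA3B, a candidate tumor suppressor, was low in SK-N-BE(2)C controls with 0.328, 0.351, 0.399, 0.223 and 0.378 CPM and reached 1.60, 0.747, 0.844, 1.06 and 1.21 CPM at 24 h and 2.08, 4.59, 4.92, 2.16 and 2.92 CPM at 7 d. No 7 d library overlapped a control (log2 fold change 3.23 ± 0.32, adjusted p = 1.6e-07), the largest rise of a member in this line among called members with a mean of at least 1 CPM in 1 of the groups. SH-SY5Y held 3.60 to 5.42 CPM in controls and 9.56 to 14.2 CPM at 5 d (log2 fold change 1.38 ± 0.16, adjusted p = 4.9e-07). In IMR-32 it was called higher at 24 h (log2 fold change 0.82 ± 0.24, adjusted p = 0.016), a call lost without replicate 1, replicate 2 or replicate 3 (log2 fold changes of 0.65 to 0.96 in the fits that left out libraries), and not at 5 d (log2 fold change 0.57 ± 0.24, adjusted p = 0.06), where the fit with the replicate block gave 0.60, adjusted p = 0.00036 and the fit without replicate 5 0.51 ± 0.13 (adjusted p = 0.0029), both called.

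SEMA3C, a class 3 semaphorin that can attract, was near the floor in IMR-32 controls with 0.309, 0.2004, 0.109, 0.334 and 0.115 CPM and stayed there at 24 h with 0.147, 0.351, 0.248, 0.163 and 0 CPM. The 5 d libraries held 4.25, 4.74, 1.78, 5.37 and 0.672 CPM, all above every control and 24 h library, with replicate 5 the lowest. The change at 5 d was log2 fold change 3.87 ± 0.57, adjusted p = 6.1e-05, and 3.99 ± 0.39 (adjusted p = 3.3e-07) without replicate 5. In SK-N-BE(2)C it moved the other way, from 4.45, 5.00, 4.39, 3.64 and 3.78 CPM to 2.10, 1.49, 2.05, 2.12 and 2.38 CPM at 24 h and 1.45, 2.86, 2.65, 1.76 and 2.70 CPM at 7 d, lower at both times (log2 fold change -1.11 ± 0.19, adjusted p = 0.00016 and log2 fold change -0.94 ± 0.19, adjusted p = 0.0003). SH-SY5Y held 71.1 to 141 CPM in controls and 61.0 to 156 CPM at 5 d, and these groups overlapped (log2 fold change -0.31 ± 0.29, adjusted p = 0.36).

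SEMA3D, which also signals through neuropilins, fell in SK-N-BE(2)C from 38.1, 34.7, 31.6, 32.5 and 32.2 CPM in controls to 10.1, 9.34, 6.77, 10.4 and 9.69 CPM at 7 d, without overlap (log2 fold change -1.92 ± 0.13, adjusted p = 2e-09). In IMR-32 it rose from 0.973, 1.002, 0.871, 0.878 and 0.172 CPM to 3.08, 4.09, 1.60, 2.58 and 1.68 CPM at 5 d (log2 fold change 1.71 ± 0.38, adjusted p = 0.0018), again without overlap. SH-SY5Y held 3.17 to 9.89 CPM in controls and 3.08 to 5.54 CPM at 5 d and was not called (log2 fold change -0.77 ± 0.38, adjusted p = 0.089), whereas the fit with the replicate block called it lower (-0.71, adjusted p = 0.0016).

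SEMA3E, the ligand that binds PLXND1 without a neuropilin, rose for a time in SK-N-BE(2)C. Controls held 22.4, 25.2, 20.4, 25.6 and 26.0 CPM, 24 h libraries 37.7, 44.3, 46.8, 40.8 and 45.1 CPM and 7 d libraries 17.8, 17.9, 17.0, 23.5 and 25.1 CPM. The 24 h group lay above both others (log2 fold change 0.81 ± 0.11, adjusted p = 1.3e-05 against control and log2 fold change -1.10 ± 0.11, adjusted p = 4.7e-07 from 24 h to 7 d), and 7 d and control overlapped. In IMR-32 it held under 1 CPM in the mean of each group and was not called at 5 d (log2 fold change -0.77 ± 0.36, adjusted p = 0.089), but was called lower with the replicate block (-0.79, adjusted p = 0.033) and without replicate 5 with -0.64 ± 0.26 (adjusted p = 0.049). SEMA3G was also called higher at 24 h and lower from 24 h to 7 d in this line, though its groups overlapped, with 0.811 to 1.10 CPM in controls, 1.07 to 2.05 CPM at 24 h and 0.631 to 1.21 CPM at 7 d (log2 fold change 0.77 ± 0.23, adjusted p = 0.01 and log2 fold change -0.81 ± 0.23, adjusted p = 0.0056). In SH-SY5Y it stayed up, with 3.81 to 4.90 CPM in controls and 5.38 to 9.52 CPM at 5 d (log2 fold change 0.65 ± 0.14, adjusted p = 0.00059), a call lost without replicate 4 (log2 fold changes of 0.48 to 0.75 in the fits that left out libraries). SEMA3F was lower at the longer time in SK-N-BE(2)C (-0.98 ± 0.14) and SH-SY5Y (-0.66 ± 0.15), and SEMA3A was not called in any line.

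SEMA5A, a membrane-bound semaphorin that binds PLXNB3, fell in the 2 lines that expressed it. SH-SY5Y controls held 4.69, 3.94, 4.54, 5.53 and 6.29 CPM, 24 h libraries 1.19, 0.815, 1.19, 0.592 and 0.942 CPM and 5 d libraries 1.01, 0.670, 0.531, 0.784 and 0.906 CPM. Both treated groups lay below every control (log2 fold change -2.42 ± 0.21, adjusted p = 3.5e-08 at 24 h and log2 fold change -2.75 ± 0.21, adjusted p = 6.7e-09 at 5 d). In IMR-32 replicates 1 to 4 it went from 4.55, 5.16, 2.83 and 3.97 CPM to 0.538, 0.451, 1.09 and 0.651 CPM and 1.28, 1.09, 1.03 and 1.10 CPM, and in replicate 5, the highest of each group, from 10.5 to 4.196 and 3.02 CPM. The change at 5 d was log2 fold change -1.85 ± 0.56, adjusted p = 0.013, and -1.88 ± 0.24 (adjusted p = 7.5e-06) without replicate 5. SK-N-BE(2)C libraries held at most 0.54 CPM. SEMA5B, its closest relative, fell in SH-SY5Y, with 4.71 to 10.2 CPM in controls and 2.17 to 4.87 CPM at 5 d (log2 fold change -1.02 ± 0.23, adjusted p = 0.00072). In IMR-32 SEMA5B stood at 1.25 to 1.77 CPM in control replicates 1 to 4 and 17.2 CPM in replicate 5, and was called lower only with the replicate block (-1.32, adjusted p = 0.00036) or without replicate 5 (-1.41 ± 0.34, adjusted p = 0.002). Its 5 SK-N-BE(2)C controls were split as 16.2, 13.2, 3.09, 3.12 and 5.35 CPM, and the fall at 24 h (log2 fold change -1.57 ± 0.58, adjusted p = 0.038) was lost in 8 of 20 fits that left out libraries (log2 fold changes of -1.92 to -1.17).

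SEMA6A, a membrane-bound ligand of PLXNA2 and PLXNA4, fell with the longer treatment in each line. SH-SY5Y went from 14.6, 17.7, 12.7, 12.4 and 11.5 CPM to 5.99, 7.16, 7.12, 5.65 and 4.398 CPM at 24 h and 10.02, 8.48, 9.03, 7.28 and 4.65 CPM at 5 d, with both treated groups below the controls (log2 fold change -0.87 ± 0.17, adjusted p = 0.00021). IMR-32 held 29.6, 33.0, 26.4, 28.4 and 29.1 CPM in controls, 23.2 to 30.9 CPM at 24 h and 21.2, 25.3, 18.1, 18.0 and 14.5 CPM at 5 d, where the fall was called (log2 fold change -0.61 ± 0.12, adjusted p = 0.00073) as it was not at 24 h. SK-N-BE(2)C controls held 69.8, 67.4, 37.8, 34.9 and 39.3 CPM, high in replicates 1 and 2 as they were at 24 h, and the 7 d libraries 19.7 to 28.5 CPM (log2 fold change -1.09 ± 0.28, adjusted p = 0.0029).

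SEMA6B, which binds PLXNA4, went in opposite directions in 2 lines. IMR-32 replicates 1 to 4 fell from 58.7, 43.4, 52.3 and 71.2 CPM to 28.7, 27.0, 25.4 and 21.0 CPM at 5 d, whereas replicate 5 rose from 45.9 to 68.2 CPM. The change over all 5 was log2 fold change -0.68 ± 0.27, adjusted p = 0.043, lost in 14 of 20 fits that left out libraries (log2 fold changes of -1.15 to -0.43). Without replicate 5 it was -1.15 ± 0.14 (adjusted p = 3e-06). SH-SY5Y rose from 0.422, 0.789, 0.991, 1.24 and 0.687 CPM to 6.05, 2.45, 2.22, 2.07 and 0.725 CPM at 5 d, with replicate 1 the highest and replicate 5 within the controls (log2 fold change 1.64 ± 0.43, adjusted p = 0.0028). SEMA7A, a lipid-anchored semaphorin that binds PLXNC1, was higher at the longer time in SK-N-BE(2)C with 7.90 to 12.004 CPM in controls and 10.6 to 21.6 CPM (log2 fold change 0.66 ± 0.17, adjusted p = 0.0025), a call lost without replicate 2 (log2 fold changes of 0.45 to 0.76 in the fits that left out libraries). In IMR-32 it was higher as well with 5.46 to 8.61 and 11.0 to 12.8 CPM (log2 fold change 0.65 ± 0.12, adjusted p = 0.00042), and it was lower in SH-SY5Y with 1.90 to 2.66 and 0.896 to 1.51 CPM (log2 fold change -0.90 ± 0.21, adjusted p = 0.0009). SEMA4F, a class 4 semaphorin, rose in SK-N-BE(2)C from 4.17, 3.64, 2.55, 3.34 and 3.62 CPM to 14.8, 14.1, 7.82, 13.8 and 11.5 CPM at 7 d (log2 fold change 1.79 ± 0.17, adjusted p = 8.1e-08). SH-SY5Y held 34.7 to 43.5 CPM in controls and 56.2 to 77.4 CPM at 5 d (log2 fold change 0.57 ± 0.088, adjusted p = 1.9e-05), a call lost without replicate 4 or without the 5 d replicate 4 (log2 fold changes of 0.48 to 0.62 in the fits that left out libraries). IMR-32, with 72.3 to 90.2 CPM in controls, stayed within the limit (log2 fold change 0.15 ± 0.071, adjusted p = 0.089).

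Both neuropilins, the ligand-binding coreceptors, were called at the longer time in each line, but not in the same direction. NRP2 (hg19 chr2:206546714-206662857, plus strand, 24 merged exons) held 166, 141, 133, 138 and 129 CPM in SK-N-BE(2)C controls, 127, 107, 105, 109.5 and 101 CPM at 24 h and 26.0, 24.9, 32.6, 34.9 and 27.8 CPM at 7 d. The 7 d libraries lay far below all others (log2 fold change -2.32 ± 0.10, adjusted p = 2.9e-11), the largest fall of a called member in this line. In SH-SY5Y it held 5.32, 9.73, 6.67, 10.8 and 10.6 CPM in controls and 3.98, 4.63, 5.94, 6.38 and 4.05 CPM at 5 d, with overlap (log2 fold change -0.85 ± 0.22, adjusted p = 0.0028). IMR-32 held 198, 207, 285, 186 and 306 CPM in controls and 151, 157, 168, 149 and 206 CPM at 5 d, and these overlapped too. The IMR-32 change of -0.52 ± 0.21 (adjusted p = 0.047) was lost in 13 of 20 fits that left out libraries (log2 fold changes of -0.61 to -0.40), and was also lost under the replicate block (-0.49, adjusted p = 0.0018).

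NRP1 (hg19 chr10:33466420-33625190, minus strand, 23 merged exons) fell furthest of the called members in SH-SY5Y. Controls held 13.6, 8.05, 9.44, 5.39 and 9.83 CPM, 24 h libraries 6.11, 3.49, 5.70, 3.73 and 4.398 CPM and 5 d libraries 0.784, 0.614, 0.917, 0.112 and 0.966 CPM. All 5 d libraries were below 1 CPM and below every other library of the line (log2 fold change -3.82 ± 0.32, adjusted p = 2.3e-08). In IMR-32 it rose instead, with 97.3, 100.5, 98.8, 87.2 and 78.7 CPM in controls, 89.3, 69.6, 83.5, 82.4 and 69.6 CPM at 24 h and 180.4, 158, 181, 188 and 114 CPM at 5 d. Replicate 5 was the lowest at 5 d but also above all controls (log2 fold change 0.82 ± 0.12, adjusted p = 5.7e-05). SK-N-BE(2)C fell from 102, 123, 158, 144 and 139 CPM to 48.4, 73.7, 127, 109 and 92.0 CPM at 7 d with overlap (log2 fold change -0.61 ± 0.20, adjusted p = 0.012), a call lost without the 7 d replicate 1 (log2 fold changes of -0.77 to -0.47 in the fits that left out libraries). The IMR-32 and SH-SY5Y responses differed by 4.58 ± 0.36 (adjusted p = 3.7e-12) on the log2 scale in the test of the difference itself. Of the 11522 exon bases of NRP1, 561 lie under an opposite-strand gene.

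**Figure D4:**
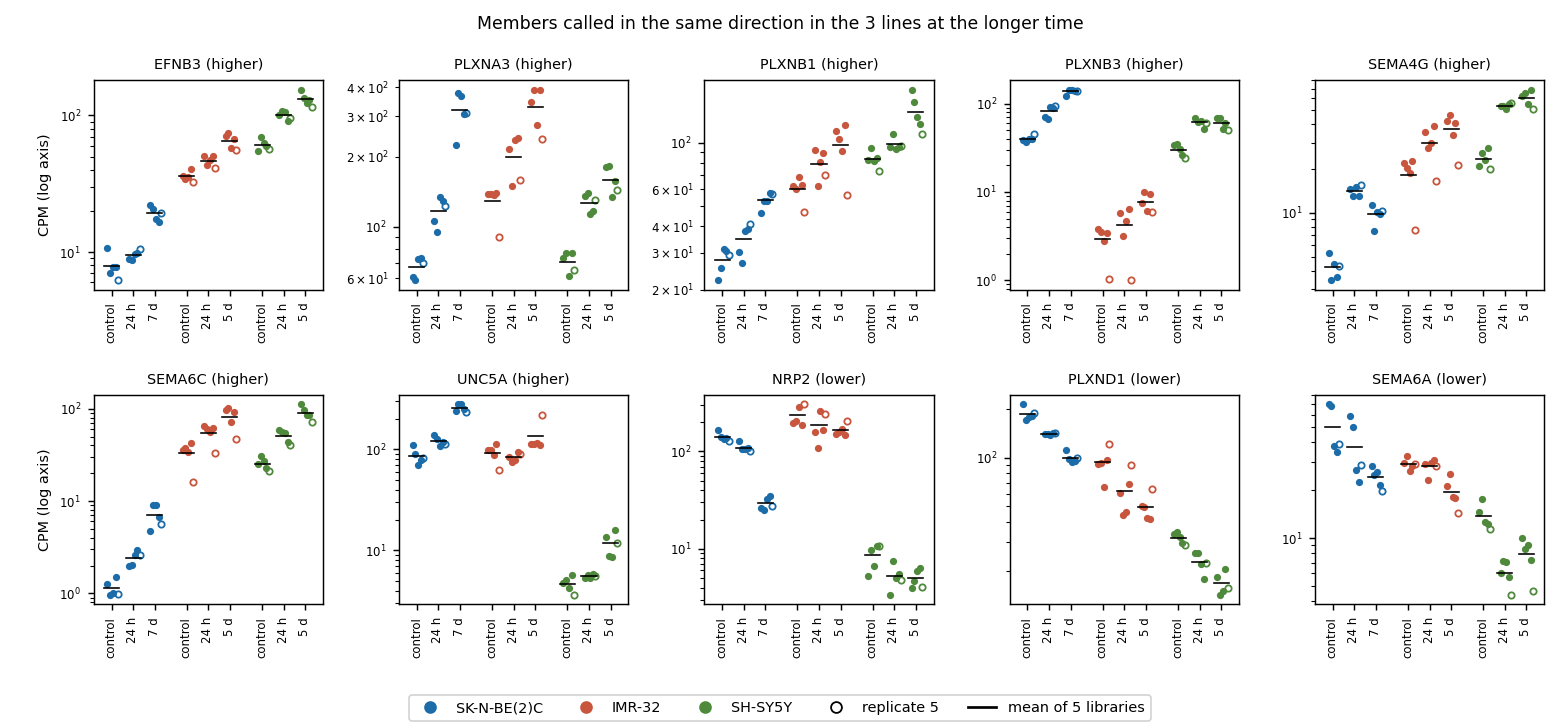
Points are the CPM of single libraries on a log axis in control, 24 h and longer PB for the 10 members that each line called in the same direction, with the mean of 5 as a line and replicate 5 as an open circle. PLXNA3 and SEMA6C rise and PLXND1 falls in each line, and the open circles of IMR-32 lie away from the others for SEMA4G, PLXNB3 and UNC5A.

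Plexins, the signalling receptors of semaphorins, gave 5 members higher and 1 lower of 9 tested at 7 d in SK-N-BE(2)C, 3 and 2 of 9 for IMR-32 (3 and 3 without replicate 5) and 3 and 3 of 9 for SH-SY5Y. PLXNA3, a receptor for class 3 semaphorins (hg19 chrX:153686621-153706118, plus strand, 32 merged exons), rose at both times in each line. SK-N-BE(2)C libraries held 60.5, 58.7, 72.7, 73.5 and 69.4 CPM in controls, 106, 94.9, 134, 129 and 123 CPM at 24 h and 226, 378, 366, 307 and 310.5 CPM at 7 d. None of these 3 groups overlapped (log2 fold change 2.20 ± 0.13, adjusted p = 6.1e-10 at 7 d). IMR-32 held 139, 138, 136, 139 and 89.99 CPM in controls and 345, 389.9, 275, 388 and 239 CPM at 5 d, with replicate 5 lowest in both (log2 fold change 1.34 ± 0.17, adjusted p = 1.4e-05). SH-SY5Y went from 73.0, 76.8, 61.2, 76.9 and 64.8 CPM to 180.4, 182, 134, 157 and 144 CPM (log2 fold change 1.11 ± 0.088, adjusted p = 8.2e-09). The rise at 7 d in SK-N-BE(2)C was larger than that at 5 d in IMR-32 by 0.89 ± 0.19 (adjusted p = 0.00036) and than that in SH-SY5Y by 1.06 ± 0.19 (adjusted p = 4.5e-05) on the log2 scale.

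The class B plexins, receptors for membrane-bound semaphorins, rose in part. PLXNB3, the receptor of SEMA5A, held 38.8, 36.8, 39.3, 40.2 and 45.2 CPM in SK-N-BE(2)C controls, 70.8, 67.1, 92.2, 88.7 and 93.5 CPM at 24 h and 121, 143, 144, 140.2 and 141 CPM at 7 d (log2 fold change 1.74 ± 0.09, adjusted p = 1.3e-10). SH-SY5Y held 24.0 to 35.1 CPM in controls, 52.3 to 69.5 CPM at 24 h and 50.8 to 69.5 CPM at 5 d (log2 fold change 0.93 ± 0.11, adjusted p = 7.5e-07), most of it by 24 h. IMR-32 held 3.80, 3.51, 2.78, 3.47 and 1.03 CPM in controls and 7.50, 10.1, 6.02, 9.43 and 5.88 CPM at 5 d (log2 fold change 1.40 ± 0.39, adjusted p = 0.007). Of the 7007 exon bases of PLXNB3, 1432 overlap SRPK3 on the same strand, so part of its counts is uncertain. PLXNB1, the receptor of SEMA4D, held 22.1, 25.2, 31.2, 30.5 and 29.2 CPM in SK-N-BE(2)C controls and 46.3, 53.0, 52.6, 57.5 and 57.1 CPM at 7 d, without overlap (log2 fold change 0.91 ± 0.12, adjusted p = 2.6e-06). SH-SY5Y held 83.0, 94.3, 82.2, 84.7 and 73.2 CPM in controls and 179, 156, 132, 123 and 110.0 CPM at 5 d (log2 fold change 0.67 ± 0.10, adjusted p = 1.1e-05). IMR-32 held 61.9, 60.0, 68.3, 63.0 and 47.0 CPM in controls and 114, 104, 91.6, 121 and 56.6 CPM at 5 d, where replicate 5 stayed within the controls (log2 fold change 0.69 ± 0.17, adjusted p = 0.003). PLXNB2 was not called against control in any line, with log2 fold changes of -0.18 to 0.18.

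PLXND1, the receptor of SEMA3E (hg19 chr3:129274057-129325519, minus strand, 36 merged exons), fell in every line at the longer time. SK-N-BE(2)C held 214, 170.1, 179, 181 and 189 CPM in controls, 139.8, 139.8, 139, 141 and 142 CPM at 24 h and 111, 98.3, 93.7, 95.9 and 100.0 CPM at 7 d. The 3 groups were separate and the treated groups narrow (log2 fold change -0.95 ± 0.064, adjusted p = 2.3e-09). SH-SY5Y fell from 33.7, 34.8, 32.5, 29.6 and 29.0 CPM to 18.4, 14.3, 15.02, 20.5 and 15.7 CPM (log2 fold change -1.0 ± 0.11, adjusted p = 2.3e-07) and IMR-32 from 91.8, 92.8, 66.2, 96.9 and 122 CPM to 50.2, 49.4, 42.2, 42.1 and 63.9 CPM, with replicate 5 highest in both groups (log2 fold change -0.93 ± 0.19, adjusted p = 0.00098).

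PLXNA2 and PLXNA4, the receptors of class 6 semaphorins, went in opposite directions between lines. PLXNA2 held 89.5, 116, 138, 127 and 121 CPM in SK-N-BE(2)C controls, 81.1, 90.1, 105, 101 and 87.7 CPM at 24 h and 396, 334, 219, 288 and 361 CPM at 7 d, where all libraries were above the others (log2 fold change 1.39 ± 0.14, adjusted p = 3.9e-07). In SH-SY5Y it held 299, 173, 186, 191 and 217 CPM in controls, 321, 210.0, 224, 237 and 331 CPM at 24 h and 66.1, 78.4, 61.1, 116 and 119 CPM at 5 d, where all were below the others (log2 fold change -1.34 ± 0.22, adjusted p = 8.7e-05). In IMR-32 replicates 1 to 4 went from 61.3, 57.5, 32.3 and 60.5 to 24.8, 19.7, 23.0 and 22.1 CPM and replicate 5 from 97.4 to 84.2 CPM, which was not called (log2 fold change -0.84 ± 0.53, adjusted p = 0.2) but was with the replicate block (-1.03, adjusted p = 0.00087) or without replicate 5 (-1.25 ± 0.21, adjusted p = 0.0002).

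PLXNA4 fell in IMR-32 from 37.004, 35.6, 43.8, 30.3 and 6.90 CPM in controls to 10.3, 9.10, 11.9, 10.6 and 5.04 CPM at 5 d (log2 fold change -1.72 ± 0.51, adjusted p = 0.012, and -1.81 ± 0.23, adjusted p = 1.3e-05 without replicate 5, which was the lowest of each group), a call lost without replicate 1 or replicate 2 (log2 fold changes of -1.97 to -1.56 in the fits that left out libraries). SK-N-BE(2)C went from 164, 207, 343, 325 and 303 CPM to 217, 623, 701, 402 and 456 CPM at 7 d with overlap (log2 fold change 0.79 ± 0.32, adjusted p = 0.035), a call lost in 8 of 20 fits that left out libraries (log2 fold changes of 0.60 to 0.97). In SH-SY5Y it rose to 260.1, 192, 233, 179 and 334 CPM at 24 h from 151, 100.2, 102, 114 and 167 CPM in controls (log2 fold change 0.91 ± 0.33, adjusted p = 0.037), a call lost in 11 of 20 fits that left out libraries (log2 fold changes of 0.76 to 1.03). It fell to 54.1, 86.8, 68.6, 119 and 224 CPM at 5 d (log2 fold change -1.17 ± 0.34, adjusted p = 0.013 from 24 h), a call lost without replicate 1 or replicate 3 (log2 fold changes of -1.58 to -0.96 in the fits that left out libraries). PLXNC1, the receptor of SEMA7A, fell by 24 h in IMR-32 from 9.86, 12.3, 11.8, 9.11 and 5.06 CPM to 4.69, 2.95, 5.90, 4.67 and 1.06 CPM and returned to 11.98, 13.7, 9.29, 14.0 and 7.62 CPM at 5 d. The return was called (log2 fold change 1.49 ± 0.34, adjusted p = 0.0033) and 5 d and control overlapped, while the fall at 24 h (log2 fold change -1.26 ± 0.33, adjusted p = 0.0089) was lost without replicate 2 (log2 fold changes of -1.46 to -1.03 in the fits that left out libraries). In SH-SY5Y it stayed lower at 5 d, with 10.2 to 12.7 CPM in controls, 4.39 to 8.21 CPM at 24 h and 5.44 to 8.69 CPM at 5 d (log2 fold change -0.68 ± 0.16, adjusted p = 0.0011). PLXNA1 was not called in any comparison with control.

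**Figure D5:**
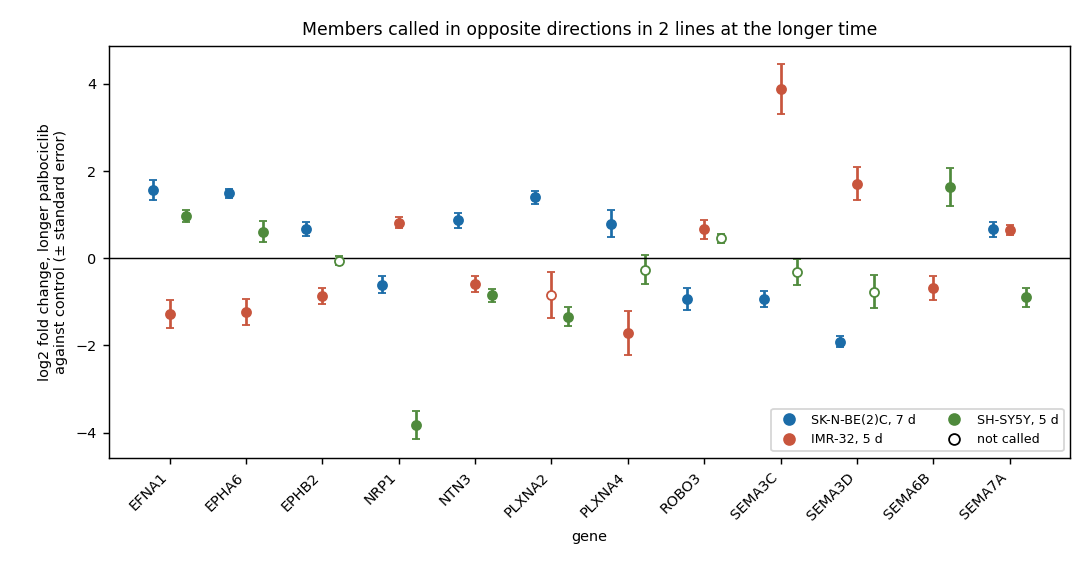
Points give the log2 fold change of longer PB against control with its standard error in each line for the 12 members called in opposite directions in at least 2 lines, and open points were not called. NRP1 lies at -3.82 for SH-SY5Y against 0.82 for IMR-32, and SEMA3C at 3.87 in IMR-32 and -0.94 in SK-N-BE(2)C.

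In SK-N-BE(2)C 2 of 3 tested Slits and 2 of 3 tested Robo receptors were called lower at 7 d, against 22.3% of all genes tested. These are few members, and both Slit calls were lost in some fits that left out libraries. In IMR-32 1 Robo was higher and 1 lower at 5 d. No Slit was called at the longer time in IMR-32 or SH-SY5Y, where all 3 were tested, and no Robo in SH-SY5Y. In SK-N-BE(2)C SLIT1 was called lower at 7 d (log2 fold change -1.02 ± 0.42, adjusted p = 0.04), a call lost in 9 of 20 fits that left out libraries (log2 fold changes of -1.31 to -0.79). SLIT2 was called lower there too. It held 2.43, 2.76, 1.15, 0.669 and 1.24 CPM in controls and 1.77, 0.324, 0.252, 0.340 and 0.275 CPM at 7 d, where replicate 1 stayed within the controls (log2 fold change -1.61 ± 0.52, adjusted p = 0.011), and the call was lost without replicate 2 (log2 fold changes of -2.55 to -1.20 in the fits that left out libraries). In IMR-32 SLIT2 held 47.9 to 60.7 CPM in controls and 40.2 to 75.9 CPM at 5 d. SLIT1 and SLIT3 in IMR-32 were not called with all 5 replicates (log2 fold change -1.17 ± 0.68, adjusted p = 0.16 and log2 fold change -0.95 ± 0.52, adjusted p = 0.14) and without replicate 5 were called lower, SLIT1 with -1.30 ± 0.31 (adjusted p = 0.0033) and SLIT3 with -1.09 ± 0.20 (adjusted p = 0.00046). With the replicate block over all libraries SLIT3 was called lower (-1.06, adjusted p = 0.00013) and SLIT1 was not (-0.82, adjusted p = 0.093). SLIT3 was higher at 24 h in SH-SY5Y (log2 fold change 0.53 ± 0.086, adjusted p = 6.4e-05), a call lost in 9 of 20 fits that left out libraries (log2 fold changes of 0.49 to 0.57).

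ROBO1, the Slit receptor of highest level per kilobase in each line, was lower at the longer time in SK-N-BE(2)C (log2 fold change -0.70 ± 0.068, adjusted p = 1.2e-07) and IMR-32 (log2 fold change -1.12 ± 0.16, adjusted p = 3.9e-05) and was not called in SH-SY5Y (log2 fold change -0.02 ± 0.087, adjusted p = 0.84). The response of SH-SY5Y differed from that of SK-N-BE(2)C by -0.71 ± 0.16 (adjusted p = 0.0009) and from that of IMR-32 by -1.16 ± 0.16 (adjusted p = 8.5e-07) on the log2 scale, the other line minus SH-SY5Y. ROBO3, a Robo that in mammals favours attraction, went apart between lines. It fell in SK-N-BE(2)C from 4.68, 3.29, 1.90, 4.24 and 2.54 CPM to 1.70, 1.40, 1.47, 2.38 and 1.98 CPM at 7 d (log2 fold change -0.94 ± 0.25, adjusted p = 0.0028). It rose in IMR-32 from 4.77, 5.21, 3.59, 4.60 and 2.93 CPM to 7.80, 8.39, 6.08, 7.56 and 3.92 CPM at 5 d (log2 fold change 0.66 ± 0.23, adjusted p = 0.023), a call lost in 8 of 20 fits that left out libraries (log2 fold changes of 0.56 to 0.80). It reached 16.5 to 22.1 CPM from 10.9 to 14.8 CPM in SH-SY5Y without passing the fold change limit (log2 fold change 0.46 ± 0.10, adjusted p = 0.00091). ROBO2 was not called in any comparison over all libraries without a block. In IMR-32 it was higher at 5 d in each same-numbered pair, from 4.24, 3.56, 2.89, 4.14 and 0.345 CPM to 6.63, 7.85, 4.30, 7.56 and 1.68 CPM, and was called higher with the replicate block (0.96, adjusted p = 0.0023) and without replicate 5 with 0.81 ± 0.21 (adjusted p = 0.0035).

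Among the netrins, NTN1 held at most 0.0646 CPM in the mean of any group. NTN3 rose in SK-N-BE(2)C from 5.99, 3.91, 3.89, 6.46 and 5.30 CPM to 8.52, 8.31, 11.7, 8.85 and 10.3 CPM at 7 d, without overlap (log2 fold change 0.87 ± 0.18, adjusted p = 0.00041). It fell in SH-SY5Y from 12.8, 14.4, 9.54, 15.5 and 12.3 CPM to 7.45, 6.81, 6.52, 10.7 and 6.16 CPM at 5 d (log2 fold change -0.85 ± 0.16, adjusted p = 0.00011) and in IMR-32 from 65.4, 57.8, 53.1, 70.6 and 35.0 CPM to 42.2, 34.1, 34.5, 38.7 and 38.3 CPM (log2 fold change -0.60 ± 0.19, adjusted p = 0.015), a call lost without replicate 3 or replicate 4 (log2 fold changes of -0.73 to -0.50 in the fits that left out libraries). The SK-N-BE(2)C response exceeded that of IMR-32 by 1.5 ± 0.26 (adjusted p = 2.1e-05) and that of SH-SY5Y by 1.69 ± 0.27 (adjusted p = 6.7e-06). NTN4, a basement membrane netrin, was called higher at 24 h in IMR-32 (log2 fold change 0.59 ± 0.20, adjusted p = 0.03) and fell by 5 d (log2 fold change -1.05 ± 0.20, adjusted p = 0.00095). Its control replicate 5 stood at 5.06 CPM against 12.2 to 14.5 CPM in the other 4, and without that replicate the 24 h change was 0.41 ± 0.095 (adjusted p = 0.0027) and not called, while at 5 d NTN4 was called lower against control with -0.59 ± 0.10 (adjusted p = 0.0001). The call at 24 h was lost in 9 of 20 fits that left out libraries (log2 fold changes of 0.40 to 0.69). NTN5 was higher at both times in SH-SY5Y (log2 fold change 2.52 ± 0.45, adjusted p = 7.3e-05 at 5 d), from a mean of 0.131 CPM in controls to 0.808 CPM.

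UNC5A, a repulsive netrin receptor that can also signal cell death (hg19 chr5:176237520-176307899, plus strand, 18 merged exons), rose in SK-N-BE(2)C and SH-SY5Y. SK-N-BE(2)C held 109.7, 89.9, 70.5, 77.7 and 82.6 CPM in controls, 141, 127, 108, 119.6 and 114 CPM at 24 h and 240.3, 281, 279, 249 and 237 CPM at 7 d (log2 fold change 1.53 ± 0.11, adjusted p = 3.2e-09). SH-SY5Y held 4.81, 5.05, 4.22, 5.68 and 3.65 CPM in controls, 5.34, 5.71, 5.40, 5.83 and 5.602 CPM at 24 h and 13.7, 8.87, 8.64, 16.1 and 11.9 CPM at 5 d, so its rise came after 24 h (log2 fold change 1.26 ± 0.16, adjusted p = 2e-06). In IMR-32 replicates 1 to 4 held 99.7, 98.1, 87.2 and 114 CPM in controls and 113, 112, 116 and 111 CPM at 5 d, whereas replicate 5 went from 62.9 to 219 CPM. The IMR-32 call (log2 fold change 0.53 ± 0.19, adjusted p = 0.026) rested on that library, with 0.17 ± 0.082 (adjusted p = 0.078) without it, with the fits that left out libraries between 0.17 and 0.68. It was also lost without replicate 3 and without its control library, and the replicate block gave 0.50, adjusted p = 0.046, which did not pass the fold change limit. The other netrin receptors differed by line. UNC5B was higher at 7 d in SK-N-BE(2)C (log2 fold change 0.87 ± 0.19, adjusted p = 0.00087), UNC5C at 5 d in IMR-32 (log2 fold change 1.18 ± 0.22, adjusted p = 0.00042) and DCC at 5 d in IMR-32 (log2 fold change 1.24 ± 0.47, adjusted p = 0.041), a call lost in 13 of 20 fits that left out libraries (log2 fold changes of 0.98 to 1.47). Without replicate 5 DCC gave 1.21 ± 0.14 (adjusted p = 2.5e-06). UNC5D was lower at 5 d in IMR-32 (log2 fold change -1.03 ± 0.26, adjusted p = 0.0036) and SH-SY5Y (log2 fold change -1.70 ± 0.49, adjusted p = 0.0055) and had no count in any SK-N-BE(2)C library, which allows up to 3 counts in each.

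The ephrin-A ligands, held to the membrane by a lipid anchor, gave 1 higher and 1 lower of 4 tested at 7 d in SK-N-BE(2)C, 1 and 1 of 5 for IMR-32 (1 and 2 without replicate 5) and 2 and 1 of 5 for SH-SY5Y. EFNA1 rose in SK-N-BE(2)C from 3.70, 2.94, 1.65, 2.30 and 1.35 CPM to 4.45, 4.13, 4.10, 4.13 and 3.83 CPM at 24 h and 4.67, 8.21, 9.21, 7.20 and 7.38 CPM at 7 d (log2 fold change 1.56 ± 0.23, adjusted p = 1.4e-05). It rose in SH-SY5Y from 11.4, 13.6, 15.3, 11.7 and 13.7 CPM to 37.01, 29.7, 25.6, 22.4 and 19.6 CPM at 5 d (log2 fold change 0.96 ± 0.13, adjusted p = 5e-06). In both lines every treated library of the longer time was above every control. In IMR-32 it fell from 2.43, 2.71, 1.47, 2.84 and 1.55 CPM in controls to 0.873, 0.490, 0.745, 0.712 and 1.74 CPM at 5 d, with replicate 5 within the controls (log2 fold change -1.28 ± 0.32, adjusted p = 0.0034, and -1.76 ± 0.29, adjusted p = 8.5e-05 without it). EFNA3 rose in IMR-32 from 11.3, 9.67, 7.08, 11.95 and 3.16 CPM to 27.3, 31.4, 17.9, 20.8 and 18.2 CPM at 5 d (log2 fold change 1.41 ± 0.35, adjusted p = 0.0042). SH-SY5Y held 13.6 to 16.4 CPM in controls and 24.3 to 32.8 CPM at 5 d (log2 fold change 0.81 ± 0.089, adjusted p = 3.4e-07). Of its 1944 exon bases, 853 are shared with the readthrough gene EFNA4-EFNA3. EFNA5 was lower in SK-N-BE(2)C (log2 fold change -1.02 ± 0.085, adjusted p = 2.4e-08) and SH-SY5Y (log2 fold change -0.69 ± 0.10, adjusted p = 6.7e-06) and not in IMR-32 (log2 fold change 0.16 ± 0.10, adjusted p = 0.19), and the IMR-32 response differed from that of SK-N-BE(2)C by -1.15 ± 0.14 (adjusted p = 2e-08), taken as SK-N-BE(2)C minus IMR-32.

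EphA receptors, the tyrosine kinases that bind ephrin-A ligands, gave 3 higher and 0 lower of 5 tested at 7 d in SK-N-BE(2)C, 0 and 3 of 6 for IMR-32 (1 and 4 without replicate 5) and 2 and 0 of 4 for SH-SY5Y. Of all genes tested, 24.5% were higher and 22.3% lower in SK-N-BE(2)C, 16.6% and 15.5% for IMR-32 and 18.6% and 17.3% for SH-SY5Y. EPHA6 was called in each line. SK-N-BE(2)C held 8.90, 6.89, 8.18, 8.32 and 7.62 CPM in controls and 20.1, 25.0, 25.6, 21.4 and 23.0 CPM at 7 d (log2 fold change 1.49 ± 0.10, adjusted p = 2.9e-09). IMR-32 held 6.32, 4.51, 6.70, 5.31 and 3.28 CPM in controls and 1.51, 1.91, 1.60, 2.36 and 3.75 CPM at 5 d, with replicate 5 the highest at 5 d and the lowest in controls (log2 fold change -1.24 ± 0.30, adjusted p = 0.0029, and -1.63 ± 0.22, adjusted p = 1.2e-05 without it). SH-SY5Y held 4.14, 4.52, 4.43, 3.10 and 3.81 CPM in controls and 11.1, 6.75, 4.15, 4.81 and 5.38 CPM at 5 d, a rise (log2 fold change 0.61 ± 0.25, adjusted p = 0.038) that was lost in 9 of 20 fits that left out libraries (log2 fold changes of 0.33 to 0.78). The SK-N-BE(2)C response exceeded that of IMR-32 by 2.75 ± 0.34 (adjusted p = 2.8e-08). Of the 18310 exon bases of EPHA6, 2010 overlap another gene on the same strand.

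EPHA10, a receptor that lacks kinase activity, rose most of all members in SH-SY5Y, from 0.844, 0.579, 1.15, 0.620 and 0.793 CPM in controls to 1.66, 1.51, 1.13, 1.09 and 1.73 CPM at 24 h and 5.49, 3.12, 2.27, 3.58 and 2.72 CPM at 5 d (log2 fold change 2.03 ± 0.25, adjusted p = 1.6e-06), among called members with a mean of at least 1 CPM in 1 of the groups. SK-N-BE(2)C held 0.324 to 0.655 CPM in controls and 0.881 to 2.21 CPM at 7 d (log2 fold change 1.62 ± 0.29, adjusted p = 0.00011). In IMR-32 it held 14.5, 13.0, 17.1, 19.5 and 2.41 CPM in controls and 33.3, 33.7, 25.9, 30.5 and 13.4 CPM at 5 d, not called over all 5 replicates (log2 fold change 1.03 ± 0.47, adjusted p = 0.083) but called with the replicate block (1.18, adjusted p = 0.0003) or without replicate 5 (0.94 ± 0.12, adjusted p = 9.3e-06). EPHA5 fell in IMR-32 from 3.76, 3.36, 3.81, 3.38 and 2.36 CPM to 0.698, 1.04, 1.49, 1.10 and 1.18 CPM at 5 d (log2 fold change -1.61 ± 0.28, adjusted p = 0.00023). It held 25.8 to 32.9 CPM in SK-N-BE(2)C controls and 23.8 to 36.2 CPM at 7 d (log2 fold change -0.19 ± 0.11, adjusted p = 0.14), and had no count in any SH-SY5Y library. Of its 9833 exon bases, 535 lie under EPHA5-AS1. EPHA8 was higher at 7 d in SK-N-BE(2)C (log2 fold change 1.30 ± 0.35, adjusted p = 0.0033), and EPHA2 lower at 5 d in IMR-32 (log2 fold change -0.95 ± 0.29, adjusted p = 0.012), a call lost without replicate 1 (log2 fold changes of -1.11 to -0.80 in the fits that left out libraries).

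Ephrin-B ligands, which span the membrane and signal back into the cell, gave 2 higher and 0 lower of 3 at 7 d in SK-N-BE(2)C, 1 and 0 for IMR-32 (1 and 1 without replicate 5) and 2 and 1 for SH-SY5Y. EFNB3 (hg19 chr17:7608520-7614690, plus strand, 5 merged exons) rose in all 3. SK-N-BE(2)C held 10.6, 7.02, 7.78, 7.80 and 6.22 CPM in controls and 22.1, 20.6, 17.4, 16.5 and 19.2 CPM at 7 d, and 24 h overlapped the controls (log2 fold change 1.23 ± 0.13, adjusted p = 3.2e-07 at 7 d). IMR-32 held 35.9, 34.4, 35.5, 40.4 and 32.5 CPM in controls, 50.7, 43.3, 47.1, 50.7 and 41.5 CPM at 24 h and 71.2, 74.1, 57.7, 67.3 and 55.4 CPM at 5 d. Its groups did not overlap and replicate 5 moved with the others (log2 fold change 0.85 ± 0.091, adjusted p = 3.5e-06). SH-SY5Y held 54.6, 69.7, 62.5, 59.8 and 56.5 CPM in controls, 101, 107, 106, 91.0 and 95.9 CPM at 24 h and 154, 134, 123, 129.5 and 116 CPM at 5 d (log2 fold change 1.04 ± 0.074, adjusted p = 2.5e-09). EFNB2, whose 5005 exon bases include 1822 under an opposite-strand gene, was higher at 5 d in SH-SY5Y (log2 fold change 0.77 ± 0.14, adjusted p = 0.00012). It was also called higher at 7 d in SK-N-BE(2)C (log2 fold change 0.51 ± 0.17, adjusted p = 0.014), a call lost in 9 of 20 fits that left out libraries (log2 fold changes of 0.40 to 0.63). In IMR-32 it was not called at 5 d (log2 fold change -0.64 ± 0.41, adjusted p = 0.2), and was called lower with the replicate block (-0.78, adjusted p = 0.0068) and without replicate 5 with -0.53 ± 0.20 (adjusted p = 0.033). EFNB1 was lower at 5 d in SH-SY5Y (log2 fold change -0.76 ± 0.085, adjusted p = 4e-07).

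EphB receptors gave 1 higher and 2 lower of 4 tested at 7 d in SK-N-BE(2)C, 0 and 2 of 3 for IMR-32 and 0 and 0 of 3 for SH-SY5Y. EPHB4 fell in SK-N-BE(2)C from 11.4, 9.43, 6.24, 7.73 and 8.43 CPM to 8.49, 5.35, 4.58, 4.63 and 3.69 CPM at 24 h and 1.83, 4.05, 2.40, 1.64 and 2.26 CPM at 7 d (log2 fold change -1.87 ± 0.26, adjusted p = 7.1e-06). SH-SY5Y held 118 to 144 CPM in controls and 104 to 142 CPM at 5 d (log2 fold change -0.18 ± 0.079, adjusted p = 0.056), and IMR-32 at most 0.46 CPM in any library. EPHB2 rose in SK-N-BE(2)C from 29.7, 31.2, 20.9, 19.2 and 21.5 CPM to 46.7, 43.6, 37.2, 35.3 and 38.7 CPM at 7 d (log2 fold change 0.67 ± 0.16, adjusted p = 0.0014) and fell in IMR-32 from 21.0, 20.2, 26.2, 18.8 and 23.8 CPM to 10.4, 11.6, 10.7, 8.82 and 19.1 CPM at 5 d (log2 fold change -0.87 ± 0.19, adjusted p = 0.0015). SH-SY5Y, with 48.2 to 68.4 CPM in controls, gave log2 fold change -0.05 ± 0.10, adjusted p = 0.64. EPHB3 was also called lower at 5 d in IMR-32 (log2 fold change -0.64 ± 0.15, adjusted p = 0.0022).

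Whether a response differed between lines was tested directly over all 45 libraries for the 64 members with enough counts. At 24 h the responses of SK-N-BE(2)C and IMR-32 differed for 5 members, against 4.49% of all genes tested, those of SK-N-BE(2)C and SH-SY5Y for 1 (EFNB3), against 2.04%, and those of IMR-32 and SH-SY5Y for 3, against 3.07%. These 3 counts were 2 to 9, 0 to 2 and 0 to 5 when a replicate number was left out, and 9, 2 and 5 without IMR-32 replicate 5 alone. With the replicate block they were 10, 7 and 8. Without replicate number 1, 2, 3 or 4 the counts were 2, 2, 2 and 2 for the first, 0, 0, 0 and 0 for the second and 1, 1, 1 and 0 for the last pair. At the longer time the counts were 24, 20 and 20, against 23.9%, 21.2% and 20.8% of all genes. Wide differences among the 12 members called in opposite directions were those of NRP1 between IMR-32 and SH-SY5Y (4.58 ± 0.36, adjusted p = 3.7e-12), SEMA3C between SK-N-BE(2)C and IMR-32 (-4.76 ± 0.63, adjusted p = 1.9e-07) and SEMA3D between the same lines (-3.58 ± 0.47, adjusted p = 1.4e-07), each given as the first line minus the second on the log2 scale. EFNA1 differed by 2.88 ± 0.35 (adjusted p = 3.1e-08) between SK-N-BE(2)C and IMR-32. PLXNA2 differed by 2.71 ± 0.50 (adjusted p = 6.2e-05) between SK-N-BE(2)C and SH-SY5Y.

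The other genes of guidance signalling were read from a list of 64 cytoplasmic effectors, coreceptors and further cues. At 24 h, 4 of 56 tested were called higher and 4 lower in SK-N-BE(2)C, 2 and 2 of 59 for IMR-32 and 8 and 6 of 60 for SH-SY5Y. At the longer time 22 were higher and 7 lower in SK-N-BE(2)C, 15 and 5 for IMR-32 (17 and 7 without replicate 5, and 4 and 4 at 24 h) and 12 and 13 for SH-SY5Y, beside the shares of all genes given above. Higher in all 3 lines were FLRT1, a membrane protein that binds UNC5 receptors, L1CAM, an adhesion molecule of axons, MICAL1, an oxidase downstream of plexins, PAK3, a kinase downstream of Rac, and SRGAP3. Of all genes tested in the 3 lines, 6.91% were called higher and 6.5% lower in each. Whether the list departs from these shares was not tested. PAK3 rose by 3.68 ± 0.28 in SK-N-BE(2)C, 0.72 ± 0.14 for IMR-32 and 1.19 ± 0.079 for SH-SY5Y on the log2 scale, and MICAL1 by 0.97 ± 0.15, 1.08 ± 0.15 and 0.67 ± 0.072. SRGAP2, an intracellular partner of Robo receptors, was lower in all 3, with -1.83 ± 0.15, -1.20 ± 0.16 and -0.72 ± 0.067, while its relative SRGAP3 was higher with 0.73 ± 0.27, 0.94 ± 0.34 and 0.53 ± 0.14. SRGAP2 has near-identical partial copies in the human genome, so its counts are uncertain.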

How the data were processed

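RNA-seq of polyadenylated RNA was analysed from 45 libraries, 5 for each of 9 groups. Per the labels and the study's methods, reads from a directional paired-end kit were trimmed with Trim Galore 0.6.4, aligned to hg19 with STAR, which also counted reads per gene, and the authors deposited these raw counts with no scaling. The authors' own CPM and DESeq2 result tables (fold changes and p-values) were not used. Total counts per library were 13459219 to 25441812. Which strand was counted is not stated, so overlapping opposite-strand genes may share reads.

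Each line was fitted on its 15 libraries with edgeR 4.0.16 (R 4.3.3): TMM scaling, filterByExpr (minimum count 10, minimum total count 15, share 0.7), robust quasi-likelihood F tests, two-sided, and Benjamini-Hochberg adjustment over all genes tested. This design pools the spread of the 3 groups of a line. Differences between lines came from 1 fit of all 45 libraries. CPM in the text are raw counts over the library total, without TMM. Standard errors are the log2 fold change over the square root of F. Exon lengths and overlaps came from GENCODE on GRCh37, the same assembly as hg19. The fit was also run on simulated counts with the same spread for every gene and no replicate that stood apart. That run cannot show how the fit behaves with the outlying IMR-32 replicate.

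Members chosen for library values were those called alike in the 3 lines, the 4 largest called rises and falls in each line with a mean of at least 1 CPM in 1 of the 2 groups, those called in opposite directions, and those that turned between 24 h and the longer time. Some values of these stand as ranges or fold changes, as for SEMA3G and NTN4. Values of other members stand as fold changes or ranges, save for ROBO2 in IMR-32 and for single libraries that stood apart. The members and all lists were chosen with earlier results of these data known.

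Per the study's methods, replicates were different passages plated independently. Same-numbered libraries deviated together in every pair of IMR-32 and SH-SY5Y (lowest correlation 0.114 and 0.109 over 5 pairs), so the pairing rests on the data and not on a stated shared batch. In SK-N-BE(2)C the correlations were positive too, with 0.243 to 0.516 between control and 24 h. With the 7 d group they were 0.0966 to 0.354 for controls and 0.0482 to 0.478 for 24 h. In SK-N-BE(2)C, replicates 3 to 5 were closer to each other than to replicates 1 and 2 in controls and at 24 h, and at 7 d only replicates 4 and 5 were close. Alternatives were RLE factors, library size alone, no filter, no fold change limit, DESeq2 1.42.0, a replicate block and fits without libraries. Summing SK-N-BE(2)C replicates 3 to 5 and leaving IMR-32 replicate 5 out of the fits between lines were chosen after seeing the data. Single genes of the Schwann and glial list are not reported here.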

Additional observations from a re-analysis of the deposited data

Results flagged for a closer look

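In groups of 5 libraries, 33 of 356 groups examined over 45 members (9.27%) held 1 library whose gap to the nearest of the others exceeded Dixon's 95% critical value. Chance alone gives about 1 in 20 groups for genes picked without regard to their values. Here 35 of the 45 members were named for their results in these data. The others were added with results known, among them UNC5B, SLIT3, SLIT1 and DCC. The share can therefore not be set against chance. Of these, 25 were libraries of IMR-32 replicate 5. Among the controls that replicate stood apart with DCC at 5.46 CPM, EFNB1 at 12.4 CPM, EPHA8 at 5.06 CPM, NTN4 at 5.06 CPM, PLXNA3 at 89.99 CPM, SEMA3B at 5.46 CPM, SEMA4G at 7.64 CPM, SEMA5B at 17.2 CPM, SLIT3 at 379 CPM and UNC5B at 395 CPM. At 24 h that replicate stood apart with EPHA10 at 4.13 CPM, EPHA8 at 6.14 CPM, PLXNA2 at 108 CPM, SEMA5A at 4.196 CPM, SEMA5B at 6.89 CPM, SEMA6C at 33.3 CPM, SLIT3 at 577 CPM and UNC5B at 619.9 CPM. At 5 d that replicate stood apart with DCC at 21.2 CPM, EPHB2 at 19.1 CPM, PLXNA2 at 84.2 CPM, SEMA5A at 3.02 CPM, SEMA5B at 8.07 CPM, SEMA6B at 68.2 CPM and UNC5A at 219 CPM. The other single libraries that stood apart held EFNA5 at 123 CPM in the 24 h IMR-32 replicate 3, NTN3 at 10.7 CPM in the 5 d SH-SY5Y replicate 4, PLXNB1 at 109.8 CPM in the 24 h SH-SY5Y replicate 2 and PLXNB3 at 121 CPM in the 7 d SK-N-BE(2)C replicate 1. Others held PLXNC1 at 12.7 CPM in the SH-SY5Y control replicate 2, SEMA3D at 6.77 CPM in the 7 d SK-N-BE(2)C replicate 3, SEMA5B at 8.33 CPM in the 7 d SK-N-BE(2)C replicate 1 and UNC5C at 456 CPM in the SH-SY5Y control replicate 3.

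The difference between lines in the response to PB, tested in the fit of all 45 libraries, passed the limits for 37 results named here. Each is given as the log2 fold change of the first line minus that of the second. For the longer time only the 12 members called in opposite directions are listed, whereas 24, 20 and 20 members were called in the pairs of lines. These 12 were picked for unlike responses in the same data, so their passing is no separate support. At 24 h SK-N-BE(2)C minus IMR-32 gave 1.23 for SEMA3E, 0.94 for SEMA4G, -0.55 for EFNA5, 1.27 for EPHA6 and 0.70 for EFNB1. With SH-SY5Y in place of IMR-32 it gave -0.51 for EFNB3, a call lost with RLE factors, with library size alone and with no filter. The 24 h counts also moved when replicates were left out. The 24 h response of IMR-32 minus SH-SY5Y gave 1.16 for SEMA6A, 0.56 for EFNA5 and -0.61 for EFNB1. For the longer time the difference of SK-N-BE(2)C and IMR-32 was -4.76 for SEMA3C, -3.58 for SEMA3D, -1.40 for NRP1, 2.26 for PLXNA2, 2.54 for PLXNA4, -1.57 for ROBO3, 1.5 for NTN3, 2.88 for EFNA1, 2.75 for EPHA6 and 1.56 for EPHB2. Against SH-SY5Y the response of SK-N-BE(2)C differed by -1.18 for SEMA3D, -2.92 for SEMA6B, 1.54 for SEMA7A, 3.18 for NRP1, 2.71 for PLXNA2, -1.42 for ROBO3, 1.69 for NTN3, 0.84 for EPHA6 and 0.69 for EPHB2. Longer PB set IMR-32 apart from SH-SY5Y by 4.11 for SEMA3C, 2.41 for SEMA3D, -2.38 for SEMA6B, 1.49 for SEMA7A, 4.58 for NRP1, -1.51 for PLXNA4, -2.31 for EFNA1, -1.91 for EPHA6 and -0.87 for EPHB2. Where 1 of the lines held under 1 CPM, as SK-N-BE(2)C for SEMA6B, the difference rests on few counts, and the length of treatment differed between SK-N-BE(2)C and the other lines.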

How the results depend on the processing

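The changes of named members called at the longer time against control made 75 results. They gave 401 values under other scaling, filter, tool or block, or with SK-N-BE(2)C replicates 3 to 5 summed. Of these, 391 were still called in their direction, 10 no longer passed and 0 reversed. Members not called in the main fit, calls at 24 h and calls between the times were not counted there. At 24 h in IMR-32, 7 of 16 called members were not called in some alternative. Without the fold change limit, members called rose from 18 to 31 at 24 h in SK-N-BE(2)C and from 15 to 23 between 24 h and 5 d in SH-SY5Y, and from 1 to 2 for the 24 h difference of SK-N-BE(2)C and SH-SY5Y, by construction. That difference gave 0 members with RLE factors, with library size alone and with no filter. DESeq2 called 18, 35 and 28 members in SK-N-BE(2)C at 24 h, at 7 d and between them, 16, 32 and 14 for IMR-32 and 23, 31 and 15 for SH-SY5Y. The replicate block called 24 in place of 13 members between 24 h and 5 d in IMR-32, and 10, 7 and 8 in place of 5, 1 and 3 for the 24 h differences of SK-N-BE(2)C and IMR-32, of SK-N-BE(2)C and SH-SY5Y, and of IMR-32 and SH-SY5Y. Elsewhere the block counts were 21, 38 and 32 in SK-N-BE(2)C, where the pairing did not hold with the 7 d group, 23 and 39 for IMR-32 against control, and 23, 32 and 15 for SH-SY5Y. Leaving out libraries moved the IMR-32 count at 24 h between 3 and 19 and that between 24 h and 5 d between 11 and 24. It moved the 24 h differences between lines over 2 to 9, 0 to 2 and 0 to 5. The cause was not tested. Calls held in all settings for 11 of 18, 26 of 35 and 23 of 28 members in SK-N-BE(2)C, 1 of 16, 22 of 30 and 9 of 13 for IMR-32 (24 h, 5 d, and between them) and 17 of 22, 28 of 31 and 11 of 15 for SH-SY5Y. Depth limits members under about 1 CPM, among them NTN1, EPHA3 and EPHA4, which the count filter left untested in all 3 lines.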
